A study of Mus musculus with 20 samples.

Results

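The genes described here are 41 cytosolic and mitochondrial heat shock chaperones and their partners, taken as a named list: the HSP70, HSP90, HSP110 and small heat shock proteins, the mitochondrial chaperones, the J proteins, the BAG and other nucleotide exchange factors, the HSP90 co-chaperones, the subunits of the chaperonin TRiC (also CCT), and the heat shock factor Hsf1. A member was measured through the probe sets whose annotation gives its symbol and no other, and the brightest such probe set over the 20 arrays stood for the gene. By that rule 38 of the 41 had a probe set, and all 38 were among the 13905 genes tested, out of 18704 with a single-symbol probe set. Hsf1, Hsp90ab1 and Hspa1b had no single-symbol probe set here and have no value of their own below. The rule uses gene symbols and probe set brightness, not a difference between groups.

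The arrays (Affymetrix Mouse Gene 1.0 ST) measured RNA from the hypothalamus of male C57BL/6J mice made obese by diet, which all groups shared: a diet with 45% fat was begun at 4 weeks of age and fed for 16 weeks. Celastrol, a plant triterpenoid dissolved in DMSO, or the DMSO solvent alone at 25 µl a day, was given by intraperitoneal injection. Tissue was taken at 6 h (3 DMSO and 4 celastrol arrays), 1 day (3 and 4) or 4 days (3 and 3). Arrays of a group are biological replicates by their labels, which give a celastrol dose of 250 µg/kg beside the 6 h time only.

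Heat shock chaperones bind unfolded proteins and help them fold, keep them soluble or pass them on for degradation. When unfolded proteins accumulate, the factor HSF1 is released from chaperone complexes and binds heat shock elements, inverted repeats of nGAAn, in front of the inducible genes, of which Hspa1a, Hspa1b, Dnajb1, Hsph1, Hspb1 and Bag3 are standard readouts. Celastrol is known to induce this response in cultured cells, and brain tissue expresses many of the same chaperones at high levels without stress.

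Values are log2 intensities after RMA, and a difference is celastrol minus DMSO on the log2 scale ± its standard error (SE). Each gene was tested with limma, in 1 model of 6 group means, two-sided, with Benjamini-Hochberg adjustment over the 13905 genes. A gene passed at an adjusted p under 0.05, and every adjusted p below is limma's. Levels are compared between arrays for 1 probe set, never between genes. In whole tissue, fewer cells of a type and less RNA per cell cannot be told apart. Markers of the labelled tissue were present: 15 of 16 listed hypothalamic genes were tested, their mean level lay between 10.35 and 10.52 on every array, and Hcrt, the orexin precursor of the lateral hypothalamus, read 12.44 as the DMSO mean at 6 h. DMSO replicate 3 at 6 h and DMSO replicate 3 at 1 day stood apart from the other arrays, scoring 11.3 and 9.35 on the main axis of within-group variation where the other arrays scored -6.06 to 5.20, and values without them are given beside the results below.

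No heat shock chaperone passed the test between celastrol and DMSO at any time. The count was 0 of 38 at 6 h, where 0% of all genes passed, 0 at 1 day, where 0.424% passed, and 0 at 4 days, where 0.0791% passed. It was also 0 for the mean difference over the 3 times, which is built from the same arrays and where 0.575% of all genes passed. At an unadjusted p under 0.05 there were 5 members at 6 h, 3 at 1 day, 4 at 4 days and 10 for the mean, against 7.56%, 8.2%, 6.62% and 8.84% of all genes. The celastrol and DMSO arrays did not overlap for 3 members at 6 h, 4 at 1 day and 7 at 4 days, and the share of all genes without overlap was 6.32%, 7.88% and 14.4%. At 6 h these members were Hspa14, Bag3 and Cct4, and at 1 day Cryab, Hspa2, Hspa8 and Hspe1. At 4 days they were Cryab, Hspb6, Cct8, Cct2, Hspa4, Hspa12a and Hspd1.

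The sizes within each gene's own 95% interval were small. These intervals are not adjusted for the number of genes, so they do not bound all 38 members jointly. At each time the 95% interval of all 38 members lay within a 1.5-fold change in either direction. The same held for nearly all of the 13905 genes tested: 13861 at 6 h, 13781 at 1 day and 13814 at 4 days. The highest upper bound of any member was 1.29-fold at 6 h, 1.29-fold at 1 day and 1.23-fold at 4 days. The lowest lower bound was 0.816-fold, 0.798-fold and 0.703-fold. With DMSO replicate 3 of the time left out the highest upper bound was 1.40-fold at 6 h and 1.35-fold at 1 day, both in Hspb8. The lowest lower bound was then 0.824-fold and 0.733-fold, and all 38 intervals still lay within 1.5-fold. The median absolute difference of the members was 0.050 at 6 h, 0.051 at 1 day and 0.053 at 4 days, beside 0.050, 0.047 and 0.047 for all genes. The interval that holds the central 95% of all genes' differences held 36, 37 and 35 of the 38 members at these times.

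Most members had a difference below 0. At 6 h 30 of 38 (78.9%) lay below 0 with a median of -0.036, beside 59.0% of all genes and a median of -0.016. At 1 day it was 22 (57.9%) with a median of -0.020, beside 45.8% and 0.0068, and at 4 days 28 (73.7%) with a median of -0.035, beside 45.4% and 0.0079. At 6 h this count rested on DMSO replicate 3, which was the highest of its group for 30 of the 38 members and the lowest for 0. Without that array 20 of 38 members lay below 0 at 6 h and their median was -0.00013, beside 55.0% and -0.0078 for all genes, and 2 members were left at an unadjusted p under 0.05. The sign of 10 members turned from below to above 0. At 1 day the omission of its DMSO replicate 3 left 23 of 38 below 0. Array scaling also moved these counts: 27 members lay below 0 at 1 day when each array was centred on its median, and 24 at 6 h when the arrays were quantile normalized again. At 4 days celastrol replicate 2 was the lowest of its group for 29 of 38 members, and DMSO replicate 1 the highest of its group for 28. Over the 20 omissions of a single array the 4-day count below 0 ran from 24 to 32, and over the other settings from 27 to 28.

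**Figure D1:**
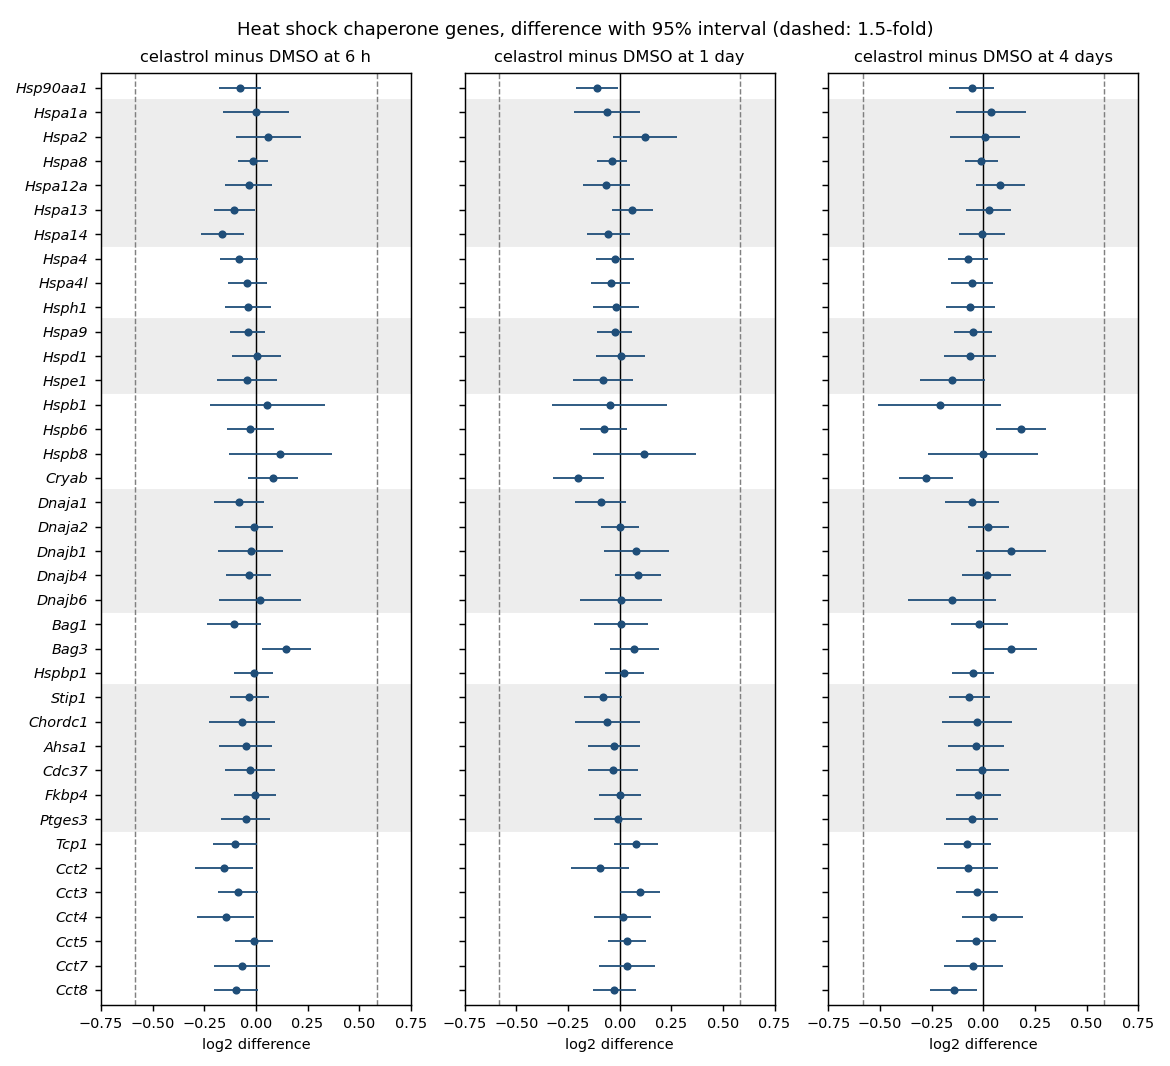
Celastrol minus DMSO difference (log2) of each of the 38 tested chaperone genes at 6 h, 1 day and 4 days, ordered by role; points are limma estimates, bars their 95% intervals, and dashed lines mark a 1.5-fold change either way. All intervals lie between the dashed lines, and 30, 22 and 28 members lie below 0.

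Genes that HSF1 is known to induce were looked at first. Of 17 members on a list of stress-inducible chaperones 16 were tested. Of these, 11 lay below 0 at 6 h, 12 at 1 day and 12 at 4 days, with medians of -0.033, -0.046 and -0.056. That is 68.8%, 75% and 75%, beside 59.0%, 45.8% and 45.4% of all genes. None passed, and 1, 2 and 2 had an unadjusted p under 0.05, beside 7.56%, 8.2% and 6.62% of all genes. The highest upper bound among the 16 was 1.26-fold, 1.18-fold and 1.23-fold, and the lowest lower bound 0.855-fold, 0.798-fold and 0.703-fold. The direction at 6 h rested on DMSO replicate 3: without it 5 of the 16 lay below 0, the median was 0.019 and the highest upper bound, of Hspb1, was 1.36-fold. At 1 day 12 lay below 0 without DMSO replicate 3, with a median of -0.058 and a highest upper bound of 1.25-fold.

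Hspa1a encodes the stress-inducible cytosolic HSP70. At 6 h the DMSO arrays read 9.38, 9.57 and 9.63 and the celastrol arrays 9.53, 9.53, 9.55 and 9.48. At 1 day they read 9.68, 9.39 and 9.39 against 9.34, 9.54, 9.37 and 9.43. At 4 days they read 9.42, 9.31 and 9.33 against 9.30, 9.32 and 9.55. The groups overlapped at every time; the highest array was a DMSO array at 6 h and 1 day and a celastrol array at 4 days. The difference was 0.00081 ± 0.076 at 6 h, -0.062 ± 0.076 at 1 day and 0.036 ± 0.081 at 4 days, with upper bounds of 1.12-fold, 1.07-fold and 1.15-fold. It was 0.052 at 6 h and -0.111 at 1 day without DMSO replicate 3 of the time. Hspa1b, its near-identical neighbour, was read only by a probe set annotated to both genes; that probe set differed by 0.053 ± 0.081 at 6 h, -0.017 at 1 day and 0.071 at 4 days, with adjusted p values of 0.884, 0.976 and 0.952. Signal of both genes cannot be separated on this array design.

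Dnajb1, the J protein that delivers clients to inducible HSP70, had DMSO arrays of 9.76, 9.70 and 9.76 and celastrol arrays of 9.66, 9.72, 9.81 and 9.66 at 6 h. At 4 days the DMSO arrays read 9.66, 9.51 and 9.54 and the celastrol arrays 9.58, 9.68 and 9.85. The groups overlapped at both times, and at 4 days celastrol replicates 2 and 3 stood above all DMSO arrays. The differences were -0.026 at 6 h, 0.081 at 1 day and 0.132 ± 0.081 at 4 days (adjusted p = 0.843). Hsph1, an HSP110 that recharges HSP70 with ATP, differed by -0.037, -0.017 and -0.064 over the 3 times. Hsph1 was at 0.012 at 6 h and -0.036 at 1 day without DMSO replicate 3 of the time, and Dnajb1 at 0.146 at 1 day.

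Bag3 links HSP70 and the small heat shock proteins to selective autophagy and is a strong HSF1 target. At 6 h the DMSO arrays read 8.82, 8.94 and 8.88 and the celastrol arrays 8.97, 9.09, 9.04 and 9.01. At 1 day they read 8.85, 8.96 and 8.87 against 9.01, 9.01, 8.99 and 8.84. At 4 days they read 8.88, 8.93 and 8.79 against 8.88, 9.03 and 9.09. All celastrol arrays lay above all DMSO arrays at 6 h; at 1 day celastrol replicate 4 lay below all DMSO arrays, and at 4 days celastrol replicate 1 lay among them. The difference was 0.148 ± 0.057 at 6 h (adjusted p = 0.628), 0.070 ± 0.057 at 1 day and 0.132 ± 0.061 at 4 days (adjusted p = 0.746). Over the 3 times it was 0.116 ± 0.033, with an adjusted p of 0.167. Of 20 omissions of an array and 9 other settings, only 1 brought that adjusted p under 0.05. That was the omission of celastrol replicate 1 at 4 days (0.0468), and the highest adjusted p was 0.372. Bag1, which also binds HSP70 through its BAG domain, differed by -0.105, 0.0062 and -0.020, and Hspbp1, a nucleotide exchange factor, by -0.010, 0.022 and -0.050. Bag1 was at -0.028 at 6 h and 0.060 at 1 day without DMSO replicate 3 of the time.

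**Figure D2:**
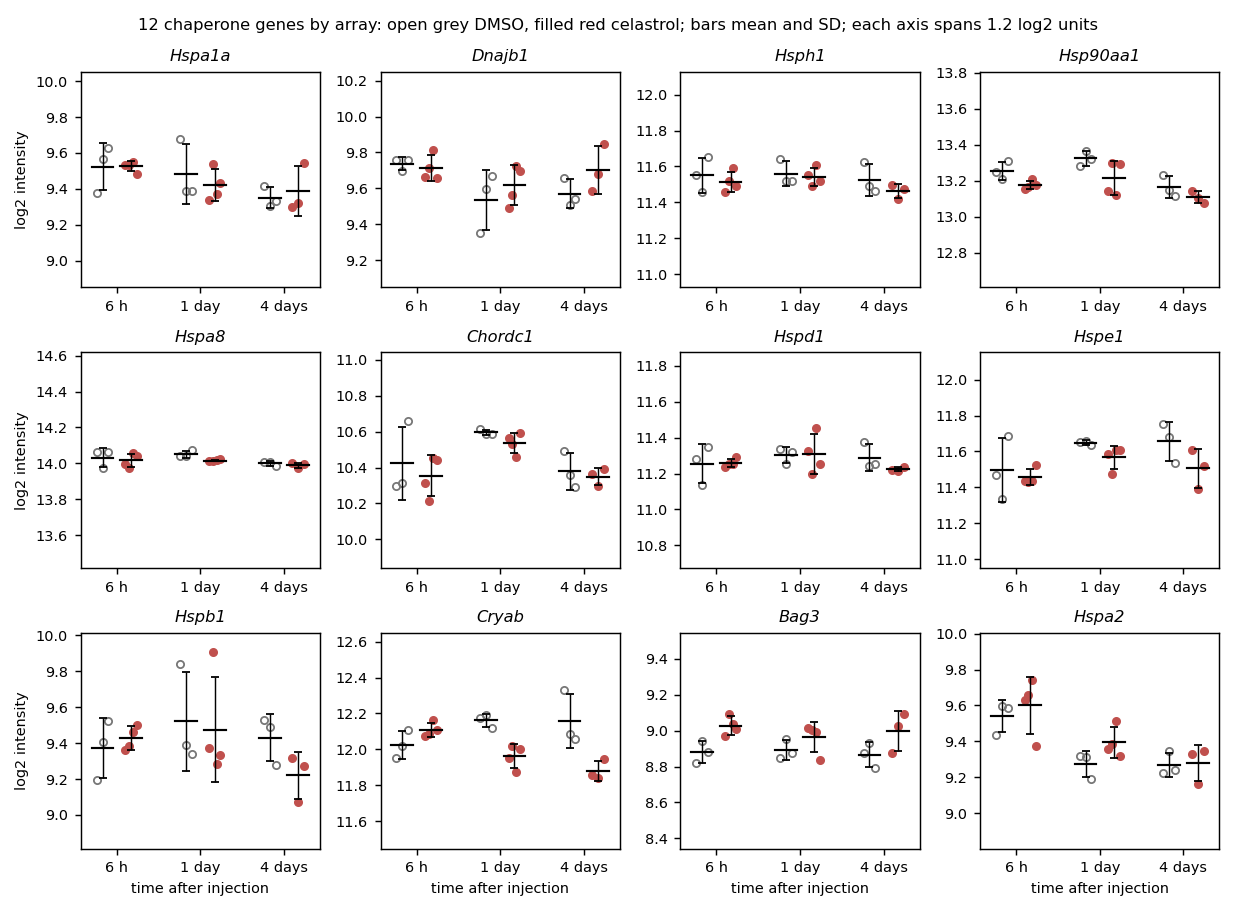
Log2 intensity of 12 chaperone genes on each of the 20 arrays, by time, with DMSO as open grey and celastrol as filled red points and the group mean and SD as bars; each panel spans 1.2 log2 units on its own baseline. For Bag3 the celastrol arrays at 6 h lie above the DMSO arrays, and for Cryab the celastrol arrays at 1 day and 4 days lie below them.

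Among the small heat shock proteins, which hold unfolded proteins without using ATP, Cryab had the smallest p of all members at 1 day and at 4 days. Cryab (αB-crystallin) is abundant in oligodendrocytes and astrocytes of the brain. At 6 h the DMSO arrays read 11.95, 12.02 and 12.11 and the celastrol arrays 12.08, 12.09, 12.17 and 12.11. At 1 day they read 12.17, 12.19 and 12.12 against 11.95, 12.02, 11.87 and 12.004. At 4 days they read 12.33, 12.09 and 12.06 against 11.86, 11.84 and 11.94. The groups overlapped at 6 h, while at 1 day and at 4 days all celastrol arrays lay below all DMSO arrays. The difference was 0.083 ± 0.059 at 6 h, -0.200 ± 0.059 at 1 day and -0.277 ± 0.063 at 4 days. The adjusted p was 0.732, 0.228 and 0.169, so Cryab did not pass at any time, nor over the 3 times (-0.131 ± 0.035, adjusted p = 0.114). DMSO replicate 1 was the highest array at 4 days, and without it the 4-day difference was -0.191. Over all 20 omissions of an array the 4-day difference ran from -0.327 to -0.191. The 1-day difference was -0.221 without DMSO replicate 3 of that time.

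The change of the treatment difference between times was tested for Cryab as for all genes. It was -0.283 ± 0.083 from 6 h to 1 day (adjusted p = 0.364) and -0.360 ± 0.086 from 6 h to 4 days (adjusted p = 0.550). Without DMSO replicate 3 at 6 h, the 6 h difference of Cryab was 0.123. A list of oligodendrocyte markers, of which 9 of 10 were tested, moved beside it. At 1 day 7 of the 9 lay below 0 with a median of -0.114, and the mean level of the list was 11.11 to 11.27 on DMSO arrays and 10.93 to 11.11 on celastrol arrays. At 4 days 8 of 9 lay below 0 with a median of -0.146, and the mean level was 11.18 to 11.26 on DMSO and 10.94 to 11.17 on celastrol arrays. At 6 h 1 of 9 lay below 0. None of the oligodendrocyte markers passed at any of these times (0, 3 and 5 at an unadjusted p under 0.05), and their part in the Cryab values was not tested. Of 10 astrocyte markers, 8 lay below 0 at 1 day with a median of -0.064, and the mean level of the list was 11.53 to 11.59 on DMSO and 11.48 to 11.50 on celastrol arrays, without overlap. Sox9, a transcription factor of astrocytes, was the 1 that passed (-0.236 ± 0.051, adjusted p = 0.0467), and was named after its value was seen. At 4 days 6 of 10 lay below 0, and the levels overlapped at 11.48 to 11.53 on DMSO and 11.42 to 11.51 on celastrol arrays. Their part in the Cryab values was not tested either. Shifts of this kind were not particular to these glial lists. The cortex and hippocampus list read 8.33 to 8.48 on DMSO and 8.22 to 8.31 on celastrol arrays at 1 day. At 4 days it read 8.37 to 8.48 and 8.27 to 8.34, again without overlap. The ependymal and tanycyte list went the other way at 1 day, at 8.40 to 8.49 on DMSO and 8.55 to 8.63 on celastrol arrays.

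Hspb6, the small heat shock protein known from muscle, read 9.67, 9.79 and 9.90 on DMSO and 9.97, 9.92 and 10.01 on celastrol arrays at 4 days. The celastrol arrays were all higher. The difference was 0.182 ± 0.058 (adjusted p = 0.488), after -0.027 at 6 h and -0.078 at 1 day. The step from 1 day to 4 days in the treatment difference was 0.259, with an adjusted p of 1.0. A list of mural and smooth muscle markers was 8.47 to 8.55 on DMSO and 8.47 to 8.62 on celastrol arrays at 4 days, with 4 of 7 below 0.

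Hspb1 (HSP25 in mouse) and Hspb8, the partner of Bag3, varied most between arrays of a group. The residual SD was 0.198 for Hspb1 and 0.176 for Hspb8, above that of 98.7% and 97.6% of all genes, beside a median of 0.0708 for the members and 0.0798 for all genes. At 6 h Hspb8 read 8.77, 9.30 and 9.35 on DMSO arrays and 9.27, 9.36, 8.95 and 9.45 on celastrol arrays. DMSO replicate 1 and celastrol replicate 3 were low, and the difference of 0.118 at 6 h had an upper bound of 1.29-fold. Without DMSO replicate 3 it was 0.222, with an upper bound of 1.40-fold. At 4 days Hspb1 read 9.53, 9.49 and 9.28 on DMSO and 9.32, 9.07 and 9.27 on celastrol arrays, which overlap. Its differences were 0.055, -0.048 and -0.211 over the times (adjusted p = 0.931, 0.963 and 0.872). Hspb1 was at 0.130 at 6 h and -0.140 at 1 day without DMSO replicate 3 of the time.

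Of the HSP70 genes 6 of 7 were tested, and 4, 4 and 2 of them lay below 0 at 6 h, 1 day and 4 days. Hspa8, the constitutive HSC70 of the cytosol, was among the steadiest genes of the arrays: only 0.374% of genes had a smaller residual SD than its 0.028. Its arrays ran from 13.97 to 14.06 at 6 h in DMSO and from 13.97 to 14.06 in celastrol. The difference was -0.016, -0.035 and -0.0092 over the times, with upper bounds of 1.04-fold, 1.03-fold and 1.05-fold. Hspa8 had 2 further single-symbol probe sets, at -0.017, -0.034 and -0.015 and at -0.039, -0.0046 and -0.023; on the latter the groups overlapped at 1 day. Every single-symbol probe set of Hspa8 thus lay below 0 at each time. The probe sets that Hspa8 shares with small nucleolar RNAs gave 0.053 to 0.063 at 6 h, 0.183 to 0.189 at 1 day and 0.213 to 0.215 at 4 days. Their SDs over the 20 arrays were 0.295 and 0.294, beside 0.031 for the probe set used, and their signal cannot be assigned to Hspa8 alone. Hspa14, an HSP70 that works at the ribosome, had the smallest p of the members at 6 h. It read 9.39, 9.34 and 9.38 on DMSO arrays and 9.19, 9.16, 9.26 and 9.23 on celastrol arrays. All celastrol arrays were lower, by a difference of -0.162 ± 0.051 (adjusted p = 0.575), and without DMSO replicate 3 the value was -0.157. At 1 day and 4 days the difference was -0.054 and -0.0066. Hspa13, a microsomal HSP70, differed by -0.104 ± 0.048 at 6 h (adjusted p = 0.658), and by -0.067 without that array.

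At 6 h a list of thalamus markers also differed between the groups. All 5 tested of 6 were lower on celastrol arrays, from -0.12 for Lef1 to -0.79 for Prkcd, each at an unadjusted p under 0.05, and 0 passed. The mean level of the list was 9.56 to 10.16 on DMSO and 9.39 to 9.62 on celastrol arrays at 6 h. Its part in the 6 h values of the chaperones was not tested.

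The mitochondrial chaperones Hspd1 (HSP60), Hspe1 (its lid, HSP10) and Hspa9 (mortalin) fold imported proteins. None passed; 2, 2 and 3 of the 3 lay below 0 over the times, and 1 of 3 at 6 h without DMSO replicate 3. Hspe1 read 11.75, 11.68 and 11.54 on DMSO and 11.61, 11.39 and 11.52 on celastrol arrays at 4 days, with 1 celastrol array between the DMSO arrays. Its difference was -0.041, -0.080 and -0.149 over the times, the last with an SE of 0.074 and an adjusted p of 0.767. A further Hspe1 probe set gave -0.062, -0.065 and -0.155, and on it the groups overlapped at 1 day. Without DMSO replicate 3 at 6 h, Hspe1 was at 0.053 and Hspd1 at 0.050 there. Hspd1 differed by 0.0034, 0.0048 and -0.064, and a further Hspd1 probe set by 0.079, -0.079 and 0.091, so the sign of this gene depends on the probe set. On that further probe set the groups overlapped at 4 days. Hspa9 differed by -0.040, -0.023 and -0.051.

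Hsp90aa1, the inducible cytosolic HSP90, had DMSO arrays of 13.28, 13.37 and 13.32 at 1 day and celastrol arrays of 13.14, 13.30, 13.12 and 13.29. Celastrol replicates 1 and 3 lay below all DMSO arrays and the other two among them. The difference was -0.079, -0.110 ± 0.049 and -0.056 over the times, with an adjusted p of 0.547 at 1 day. The HSP90 co-chaperones are Stip1, which passes clients from HSP70, Ptges3 (p23) and Ahsa1, which act on its ATP cycle, Cdc37, which brings kinases, Fkbp4, which serves steroid receptors, and Chordc1. All 6 lay below 0 at each of the 3 times, with medians of -0.041, -0.029 and -0.033, and none passed (0 at an unadjusted p under 0.05 at each time). At 6 h this direction rested on DMSO replicate 3: without it 5 of the 6 lay above 0, with a median of 0.034, led by Cdc37 (0.058) and Chordc1 (0.050), and Stip1 was at -0.00040. At 1 day all 6 lay below 0 without its DMSO replicate 3, with a median of -0.020. Among them Stip1 had the smallest p at 1 day (-0.081 ± 0.044, adjusted p = 0.655) and 4 days (-0.068 ± 0.048, adjusted p = 0.878), and Ptges3 at 6 h (-0.050 ± 0.056, adjusted p = 0.828, and 0.034 without DMSO replicate 3).

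TRiC folds actin, tubulin and other cytosolic proteins in a closed chamber, and 7 of its subunits are members. All 7 lay below 0 at 6 h with a median of -0.095, while 2 lay below 0 at 1 day (median 0.034) and 6 at 4 days (median -0.048). Without DMSO replicate 3 at 6 h all 7 still lay below 0, with a median of -0.033. At 6 h Cct2 read 12.09, 12.33 and 12.39 on DMSO and 12.06, 12.27, 12.05 and 12.09 on celastrol arrays. The groups overlapped, and DMSO replicate 3 was the highest array. Cct2 differed by -0.154 ± 0.066 and Cct4 by -0.147 ± 0.066 at 6 h (adjusted p = 0.648 and 0.658); without that array the values were -0.094 and -0.080. At 4 days Cct8 read 11.41, 11.32 and 11.28 on DMSO and 11.23, 11.13 and 11.22 on celastrol arrays. All celastrol arrays were lower, by -0.144 ± 0.054 (adjusted p = 0.606). Cct3 differed by 0.097 ± 0.046 at 1 day (adjusted p = 0.605).

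The HSP110 genes Hspa4, Hspa4l and Hsph1 lay below 0 at all 3 times, with Hspa4 at -0.083 at 6 h and -0.074 at 4 days (adjusted p = 0.675 and 0.866) and Hspa4l at -0.043 at 1 day (adjusted p = 0.850). Without DMSO replicate 3 at 6 h, Hspa4 was at -0.035, Hspa4l at 0.00073 and Hsph1 at 0.012. Of the 5 J proteins 4, 1 and 2 lay below 0; Dnaja1 differed by -0.081, -0.092 and -0.056, and Dnajb4 by 0.088 at 1 day (adjusted p = 0.683). A second Dnaja1 probe set had 0.047 at 6 h. Dnajb6 differed by -0.153 at 4 days on its single-symbol probe set, which was dim, and its probe sets shared with other annotations gave 0.029 to 0.039. None of these genes passed.

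Over the mean of the 3 times 31 of 38 members (81.6%) lay below 0 with a median of -0.031, beside 50.1% of all genes; 24 lay below 0 without DMSO replicate 3 at 6 h. The 10 members at an unadjusted p under 0.05 were Cryab and Bag3, given above, and 8 others with differences below 0. These were Cct2 (-0.109), Hspe1 (-0.090), Cct8 (-0.088), Hsp90aa1 (-0.082), Dnaja1 (-0.076), Hspa14 (-0.074), Hspa4 (-0.061) and Stip1 (-0.060). Their adjusted p values ran from 0.290 for Cct8 to 0.527 for Hspe1. Bag3 was the only one of the 10 above 0.

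**Figure D3:**
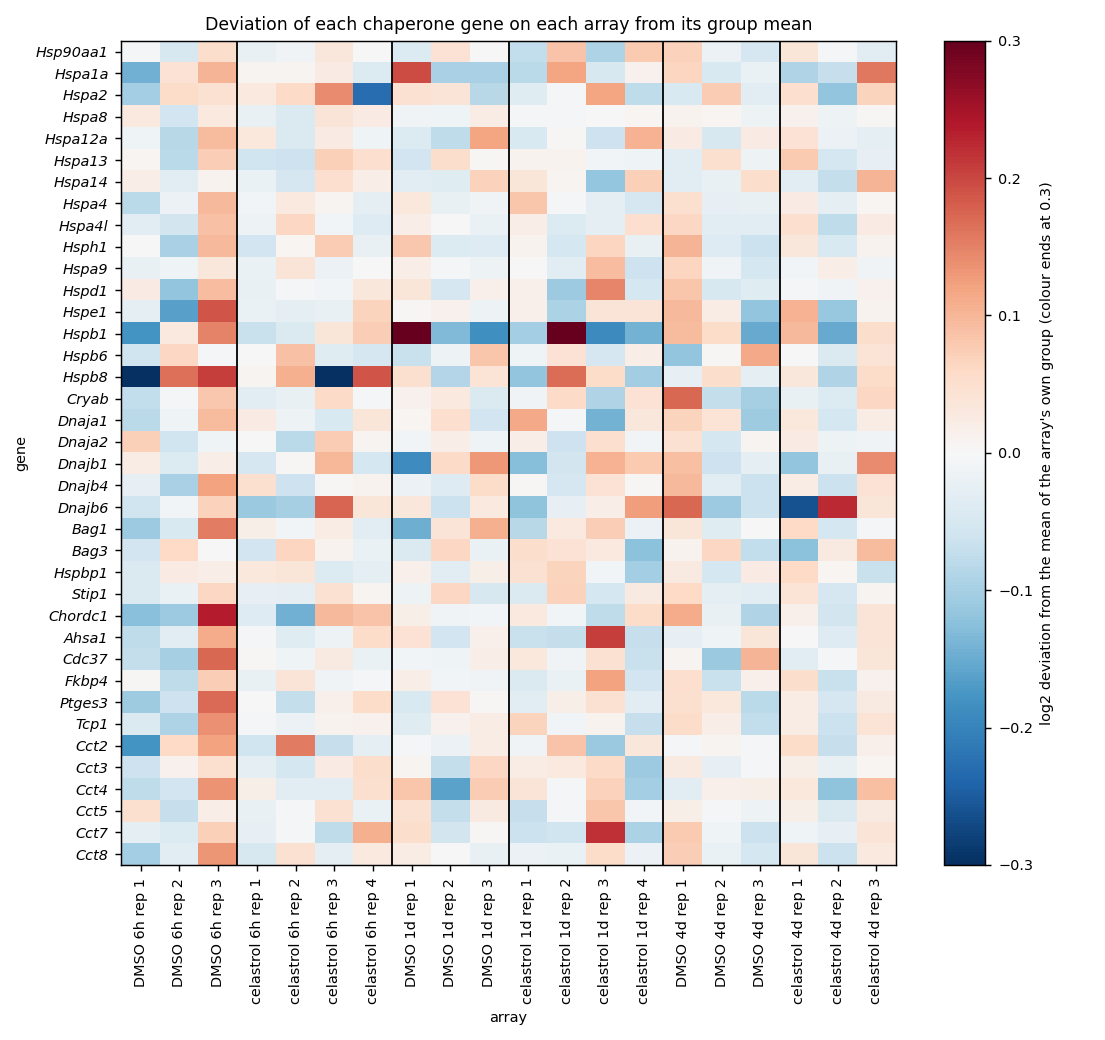
Deviation of each of the 38 chaperone genes from its group mean (log2) on every array, with colour ending at 0.3 log2 units either way. DMSO replicate 3 at 6 h is above its group mean for 35 of 38 genes, and celastrol replicate 2 at 4 days is the lowest of its group for 29.

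Members whose promoter window holds a strict heat shock element were set beside the other members. Promoter windows of 300 bases, from 250 before to 50 after the annotated start, came from RefSeq (build GRCm38.p6) and were found for 33 members, 32 of them tested. No entry was used for Hsf1, Hsp90aa1, Hsp90ab1, Hspa8, Hspa9, Hspa13, Cryab and Cct4. The motif searched was 3 adjoining repeats without a mismatch, GAANNTTCNNGAA or TTCNNGAANNTTC, which are each other's reverse complement. It was present in 5 members: Hsph1, Hspd1, Hspe1, Dnajb6 and Chordc1. Of 27025 genes with a window, 179 (0.662%) held it. A match is a run of letters and not a bound site, and no match says only that these letters are not in this window.

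The matching windows are printed 5′ to 3′ on the strand of the gene, with the bases of the motif in capitals, to show which members carry the strict element. They are chr5:149636287-149636586 on the minus strand for Hsph1, chr1:55087898-55088197 on the plus strand for Hspe1, chr5:29735648-29735947 on the plus strand for Dnajb6 and chr9:18292017-18292316 on the plus strand for Chordc1. Hspd1 and Hspe1 run in opposite directions from a shared promoter: their windows share 285 bases and hold the same site, printed once.
Hsph1: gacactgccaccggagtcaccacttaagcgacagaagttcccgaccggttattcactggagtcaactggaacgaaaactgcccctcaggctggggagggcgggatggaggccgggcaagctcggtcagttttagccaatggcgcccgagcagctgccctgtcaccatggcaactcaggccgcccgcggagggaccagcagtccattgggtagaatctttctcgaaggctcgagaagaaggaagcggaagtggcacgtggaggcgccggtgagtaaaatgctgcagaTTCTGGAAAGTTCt
Hspe1: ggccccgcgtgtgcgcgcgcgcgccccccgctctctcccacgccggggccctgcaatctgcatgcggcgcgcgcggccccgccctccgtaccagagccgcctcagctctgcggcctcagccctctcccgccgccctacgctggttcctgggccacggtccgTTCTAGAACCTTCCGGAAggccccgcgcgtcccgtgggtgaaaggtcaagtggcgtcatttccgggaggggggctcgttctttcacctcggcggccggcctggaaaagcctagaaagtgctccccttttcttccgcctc
Dnajb6: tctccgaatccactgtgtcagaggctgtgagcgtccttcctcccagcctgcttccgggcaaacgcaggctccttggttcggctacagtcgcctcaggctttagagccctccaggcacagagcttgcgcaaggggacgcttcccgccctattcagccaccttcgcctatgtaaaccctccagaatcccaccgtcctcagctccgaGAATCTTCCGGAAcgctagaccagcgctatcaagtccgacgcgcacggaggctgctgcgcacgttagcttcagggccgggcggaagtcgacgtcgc
Chordc1: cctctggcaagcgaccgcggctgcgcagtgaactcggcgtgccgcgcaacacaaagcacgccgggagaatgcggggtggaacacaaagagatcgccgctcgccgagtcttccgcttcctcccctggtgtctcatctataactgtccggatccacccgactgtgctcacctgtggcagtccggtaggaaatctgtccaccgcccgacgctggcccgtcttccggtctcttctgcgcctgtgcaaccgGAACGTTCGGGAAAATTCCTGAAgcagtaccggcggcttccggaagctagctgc
In Chordc1, 3 overlapping matches cover 23 bases. The match lies before the annotated start in Hspe1, Hspd1 and Dnajb6, across it in Chordc1 and after it in Hsph1.

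The 5 genes with the element differed between celastrol and DMSO by -0.068 to 0.020 at 6 h, -0.080 to 0.0086 at 1 day and -0.153 to -0.031 at 4 days. The highest upper bound among them was 1.16-fold, 1.15-fold and 1.10-fold. Their median was -0.037, -0.017 and -0.064 over the times, beside -0.034, -0.0070 and -0.031 for the other 27 tested members with a window. At 6 h this rested on DMSO replicate 3: without it all 5 lay above 0, from 0.012 to 0.054 with a median of 0.050 and a highest upper bound of 1.22-fold, and the other 27 had a median of -0.00016. At 1 day, without its DMSO replicate 3, the medians were -0.036 and -0.0053. None of the 5 passed. The dim Dnajb6 probe set gave the top of these ranges at 6 h and 1 day and the bottom at 4 days. It also gave the highest value and upper bound at 6 h without DMSO replicate 3. The brighter Dnajb6 probe sets, shared with Gm4247, gave -0.044 to -0.022 at 6 h and -0.027 to -0.015 at 1 day. At 4 days they gave 0.029 to 0.039. The further Hspd1 probe set gave 0.079, -0.079 and 0.091. The signs of both genes thus depend on the probe set.

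Chaperone levels were also compared between times within a treatment. In DMSO arrays no member passed from 6 h to 1 day, from 6 h to 4 days or from 1 day to 4 days, where 0.144%, 0.0288% and 0% of all genes passed. At an unadjusted p under 0.05 there were 7, 8 and 6 members, beside 12.6%, 10.7% and 7.34% of all genes. In celastrol arrays 0 members passed from 6 h to 1 day and 0 from 1 day to 4 days, where 0.137% and 0.036% of all genes passed, and 1 passed from 6 h to 4 days, where 0.964% passed. At an unadjusted p under 0.05 there were 8, 9 and 6 members in these 3 comparisons, beside 17.1%, 12.2% and 20.4%. Time and the occasion of collection cannot be told apart, and these comparisons share arrays with each other and with the treatment comparisons.

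The member that passed was Hspa2, an HSP70 best known from spermatogenesis and also expressed in brain. Its celastrol arrays read 9.63, 9.66, 9.74 and 9.37 at 6 h, 9.36, 9.39, 9.51 and 9.32 at 1 day and 9.33, 9.16 and 9.35 at 4 days. Its DMSO arrays read 9.44, 9.60 and 9.59 at 6 h, 9.32, 9.31 and 9.19 at 1 day and 9.23, 9.35 and 9.24 at 4 days. In both treatments the 6 h group had the highest mean, and in celastrol the 4-day arrays all lay below the 6 h arrays. Hspa2 fell by 0.32 from 6 h to 4 days in celastrol arrays (SE 0.075, adjusted p = 0.0458), and the same step in DMSO arrays was -0.269 ± 0.080 (adjusted p = 0.227). The celastrol call was lost in 13 of 20 omissions of a single array, with values from -0.398 to -0.263 and adjusted p values from 0.0297 to 0.165. The omitted arrays that left it in place were any DMSO array at 6 h, DMSO replicate 3 at 1 day, celastrol replicate 4 at 6 h and celastrol replicate 3 or 4 at 1 day. Between treatments Hspa2 differed by 0.061, 0.122 and 0.0078 (adjusted p = 0.845, 0.698 and 0.998), and Hspa12a, a distant HSP70 relative, by 0.083 at 4 days (adjusted p = 0.877).

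The highest group mean was at 1 day in both treatments for 11 of the 38 members (28.9%), beside 14.9% of all genes. These were Hsp90aa1 with the co-chaperones Chordc1, Stip1, Ptges3 and Fkbp4, and also Hspa4, Hsph1, Hspb1, Hspd1, Dnaja2 and Bag1. Of the co-chaperones, Cdc37 and Ahsa1 were not among them. For Hspb1 the place rested on 1 array in each 1-day group. DMSO replicate 1 read 9.84 beside 9.39 and 9.34, and celastrol replicate 2 read 9.91 beside 9.28 to 9.37. Chordc1 read 10.30, 10.31 and 10.66 at 6 h, 10.61, 10.59 and 10.59 at 1 day and 10.49, 10.36 and 10.29 at 4 days in DMSO. In celastrol it read 10.32, 10.21, 10.45 and 10.44, then 10.57, 10.53, 10.46 and 10.59, then 10.37, 10.29 and 10.39. In celastrol the 1-day arrays all lay above the others, and in DMSO all but replicate 3 at 6 h lay below them. From 1 day to 4 days Chordc1 differed by -0.215 in DMSO (adjusted p = 0.583) and -0.187 in celastrol (adjusted p = 0.347). For Stip1 the same step was -0.119 (adjusted p = 0.592) and -0.107 (adjusted p = 0.355), and for Hsp90aa1 -0.160 (adjusted p = 0.493) and -0.106 (adjusted p = 0.392). None of these steps passed.

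Whether the treatment difference itself changed between times was tested as an interaction. No member passed from 6 h to 1 day, from 6 h to 4 days or from 1 day to 4 days, where 0.00719%, 0.0144% and 0.00719% of all genes passed. At an unadjusted p under 0.05 there were 4, 3 and 1 members, beside 10.2%, 7.72% and 2.5% of all genes. The members with the smallest p were Cryab in the first pair of comparisons, given above, and Hspb6 in the last. Cct3 (0.185), Tcp1 (0.178) and Hspa13 (0.165) were the others from 6 h to 1 day. Their 6 h differences, which enter these steps, were smaller in size without DMSO replicate 3 at 6 h, at -0.064, -0.033 and -0.067.

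Related genes outside the members were taken from 9 lists of the same pathway, such as other J proteins, other HSP90 co-chaperones, prefoldin, mitochondrial protein quality control and HSF1 targets that are not chaperones. Of 92 such genes 82 were tested. At 6 h, 1 day and 4 days 52, 32 and 34 lay below 0, with medians of -0.015, 0.015 and 0.014. That is 63.4%, 39.0% and 41.5%, beside 59.0%, 45.8% and 45.4% of all genes. At an unadjusted p under 0.05 there were 2, 10 and 4, beside 7.56%, 8.2% and 6.62% of all genes. Of the 10 at 1 day, 9 lay above 0. At 6 h and at 4 days 0 passed, where 0% and 0.0791% of all genes passed. At 1 day, where 0.424% of all genes passed, 2 rose, both HSP90 co-chaperones. Fkbp5, which tempers the glucocorticoid receptor and is induced by it, read 8.66, 8.72 and 8.73 on DMSO and 9.46, 9.62, 9.77 and 9.49 on celastrol arrays at 1 day. Cdc37l1, a relative of Cdc37, read 10.35, 10.41 and 10.41 on DMSO and 10.63, 10.58, 10.59 and 10.55 on celastrol arrays. In both genes all celastrol arrays were above all DMSO arrays. The difference was 0.88 ± 0.17 for Fkbp5 (adjusted p = 0.0246) and 0.20 ± 0.042 for Cdc37l1 (adjusted p = 0.0401). Fkbp5 also passed over the 3 times (0.56 ± 0.10, adjusted p = 0.0128). Omitting single arrays lost the 1-day call of Fkbp5 in 5 of 20 cases (0.82 to 0.92) and that of Cdc37l1 in 14 of 20 (0.18 to 0.21). Among the members, Fkbp4, the close relative of Fkbp5, differed by -0.00014 ± 0.049 at 1 day, and Cdc37 by -0.031 ± 0.057.

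No other gene of these lists passed. At 6 h the gene with the smallest p over the lists was Yme1l1, a protease of the mitochondrial inner membrane (-0.149 ± 0.047, adjusted p = 0.575). The smallest p of the other lists belonged to Serpinh1, Stub1, Trap1, Unc45a, Dnajc13, Vbp1, Hsf5 and Cryaa, with adjusted p values from 0.645 to 0.795. At 1 day Rgs2, a regulator of G protein signalling, differed by 0.177 ± 0.057 (adjusted p = 0.308) and Dnajc15 by 0.142 ± 0.048 (adjusted p = 0.353). Timm44, Bag4, Trap1, Pfdn2, Hsf2 and Hspb11 led the others, from 0.545 to 0.785. At 4 days Mt1, a metallothionein, differed by 0.311 ± 0.085 (adjusted p = 0.386) and Timm44, of the mitochondrial import motor, by 0.189 ± 0.058 (adjusted p = 0.446). Fkbp5 was at 0.614 ± 0.18 (adjusted p = 0.421), and Grpel2, Hsp90b1, Dnajb5, Pfdn4, Hsf2 and Cryaa had adjusted p values from 0.728 to 0.944.

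**Figure D4:**
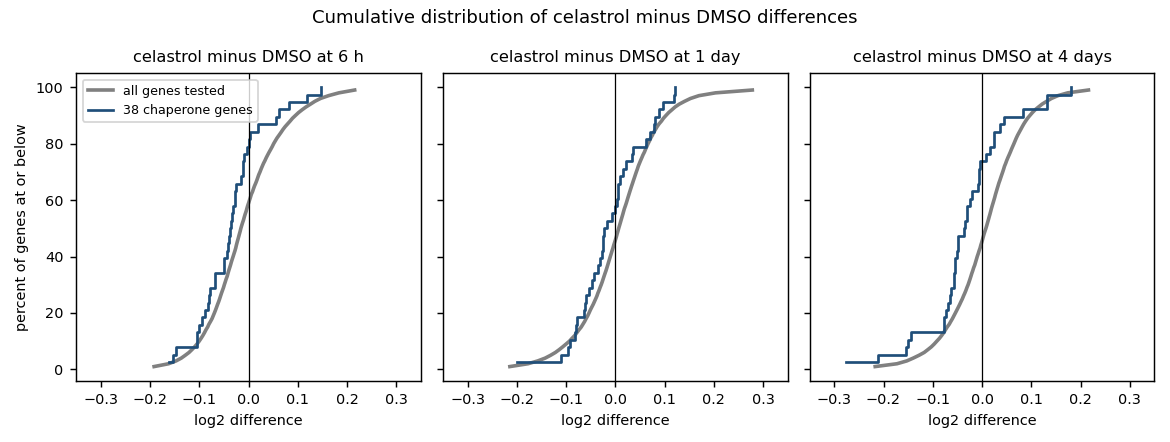
Cumulative share of genes (percent) by celastrol minus DMSO difference (log2) at 6 h, 1 day and 4 days, for the 38 chaperone genes and for all 13905 genes tested. The chaperone curve lies to the left of the curve of all genes near 0, where the medians are -0.036 and -0.016 at 6 h, -0.020 and 0.0068 at 1 day and -0.035 and 0.0079 at 4 days.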

How the data were processed

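For 20 arrays and 23492 probe sets the authors deposited log2 intensities. They were made with RMA (background correction, quantile normalization and probe set summary), per the submitters' processing notes; its version is not given in the sources used here. Array medians lay between 8.60 and 8.65 and SDs between 1.98 and 2.06. By the platform annotation 20228 probe sets had 1 gene symbol, 1399 had several and 1865 had none; 20182 matched the mouse RefSeq gene table by Entrez ID. The brightest single-symbol probe set stood for each of 18704 genes, of which 809 had more than 1. Genes with a mean below the 25th percentile (log2 7.11) were left out as dim.

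The linear model was fitted in limma 3.58.1 under R 4.3.3 (lmFit and eBayes, 14 residual and 4.98 prior degrees of freedom) in 13 comparisons. The procedure was tested on simulated data. The number of arrays limits the precision. The labels name no batch, so none could be entered as a term. The members and lists were chosen with earlier results of these data known. The members named are those of each role with the smallest p, the standard HSF1 readouts, and those at an unadjusted p under 0.05; a few others are given beside them. Alternatives tried were the dim-probe filter, array centring, quantile normalization, array weights, a trended robust fit, each time fitted alone, a replicate block, other probe sets, and leaving out arrays.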

Additional observations from a re-analysis of the deposited data

Results flagged for a closer look

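In 6 of the 76 groups of 4 arrays in which a member was measured, 1 array lay far from the other 3 by Dixon's criterion at 95%. Chance gives about 1 in 20. Hspb1 read 9.9098 on celastrol replicate 2 at 1 day, where the others read 9.28 to 9.37. Hspe1 read 11.5223 on celastrol replicate 4 at 6 h, beside 11.43 to 11.44. Bag3 read 8.8383 on celastrol replicate 4 at 1 day, beside 8.99 to 9.01. On celastrol replicate 3 at 1 day, Ahsa1 read 11.1335 beside 10.85 to 10.86, Cct7 read 11.4465 beside 11.13 to 11.17, and Cct8 read 11.3844 beside 11.31 on each of the others.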

How the results depend on the processing

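No called value changed sign, and the members stayed at 0 calls at 6 h, 1 day and 4 days in all 20 omissions of an array and all 10 other settings. For the mean of the 3 times, 0 to 1 members passed on leaving out an array (Bag3, adjusted p = 0.0468) and 1 under the trended robust fit (Cryab, adjusted p = 0.0355). From 6 h to 4 days in celastrol arrays the 1 call became 0 with no filter on dim probe sets or with centred arrays, 2 with the filter at the 40th percentile, the trended robust fit or both apart arrays left out, 3 with array weights, and 0 to 2 on leaving out an array. With replicate number as a block, Hspa2 had -0.372 there (adjusted p = 0.0197). Wherever more than 1 member passed there, Cryab was the second, at -0.227 in the main fit (adjusted p = 0.0581). Hspbp1 was the third with array weights. Within-group deviations of same-numbered arrays correlated from -0.283 to 0.288 in 9 pairs, 1 of them over 0.1. The labels do not say that the numbers pair the arrays, and so few values from such small groups cannot settle it. Calls over all genes at 4 days (11) were 2 with no filter, 7 with the stricter filter, 7 centred, 5 after quantile normalization, 28 with weights, 3 trended and robust and 2 with the time fitted alone. At 1 day (59) they were 185 with weights, and over the 3 times (80) they were 39 without both apart arrays. Leaving out an array gave 0 to 6 at 6 h, 18 to 86 at 1 day, 0 to 19 at 4 days and 43 to 158 over the 3 times. The 1-day calls of Fkbp5 and Cdc37l1 were lost in 2 and 4 of the 10 other settings. The cause was not tested. The median member difference at 6 h ranged from -0.074 to -0.00013 on leaving out an array. Probe sets compared after seeing the data passed in no member.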
